A study of Homo sapiens with 7 samples.

Results

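The proteasome genes were described across 7 RNA-seq libraries of human embryonic stem cells (hESCs). Members were the entries on chromosomes whose gene symbol begins with PSM, followed by a letter from A to G and a number. Of 63 entries with such a name, 49 lay on chromosomes, among 20187 entries there, and the other 14 were further copies of PSMB8 and PSMB9 on alternate sequences, all listed at 0. One of the 49, PSMC3IP, encodes a factor of meiotic recombination and is no proteasome gene, so that 48 members were described and PSMC3IP was kept apart.

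The proteasome is the protease that degrades ubiquitin-tagged proteins. Its core is a barrel of outer alpha rings and inner beta rings, with the active sites inside, and its regulatory particle has a base, with a ring of ATPases that unfolds substrates, and a lid that removes ubiquitin. In pluripotent stem cells the complex also clears damaged proteins, and immune cells and cells exposed to interferon exchange the catalytic beta subunits for immune forms.

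All cells were SEES-3 hESCs that carried the reverse Tet-transactivator. JMJD3c-hESCs carried a Tet-responsive piggyBac transgene for JMJD3c, the part of the histone demethylase JMJD3 (KDM6B) with the catalytic domain, and were sampled before doxycycline (Dox) was added, called Day 0, and after 1, 2, 3 or 4 days in 1 µg/ml Dox. JMJD3c mut-hESCs carried an inducible form with a point mutation in that domain and were sampled without and with Dox (Day 4). Both lines were made as puromycin-resistant stable clones, cells were grown without feeders, and how many clones each library represents is not given in the sources used here.

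Each condition had 1 library. None of the differences below has a replicate check, no p-value is given, and clone, culture and library cannot be told apart from the effect of Dox. Values are FPKM (fragments scaled to transcript length and to the mapped fragments of the library), which are corrected for length, so that levels of different genes were set side by side. Cufflinks gave each value a 95% interval, which covers the estimate in 1 library only. In a pair of libraries, genes with more than 4 FPKM in either were compared, a gene passed the fold cutoff at an FPKM ratio above 2 or below 0.5 with more than 4 FPKM in the higher library, and intervals were called apart when they did not overlap. Ratios were taken from FPKM without a pseudocount.

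KDM6B stood at 3.45 FPKM at Day 0, between 158 and 282 FPKM at Days 1 to 4, and at 2.40 and 454 FPKM without and with Dox in the mutant line. Low FPKM values fell on steps, and if 1 step is 1 read the depth was between 1810000 reads (Day 0, the shallowest) and 3620000 reads (untreated mutant line), or between 3620000 and 7240000 reads if a step is 2 reads. All 7 pluripotency markers examined were above 60 FPKM in every library, with a summed level of 2295 FPKM at Day 0 and 1618 FPKM at Day 4. The summed level of 7 mesoderm and endoderm markers was 5.49 FPKM at Day 0, 299 FPKM at Day 4 and at most 10.4 FPKM in the mutant line, so that differences at Day 4 were measured in cells of another marker composition, and the part of that composition in them was not tested. In bulk RNA, fewer cells with a transcript and less transcript per cell cannot be told apart.

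Most proteasome genes were expressed in all libraries, and 41 of the 48 members had a mean above 20 FPKM. Of the 48 members, 46 were above 4 FPKM in at least 1 library and 44 in every library. The remaining pair, PSMA8, an alpha subunit of testis, and PSMB11, a beta subunit of the thymus, was listed at 0 FPKM in all 7 libraries. The summed level of the members was 4552, 4230, 4127, 4453 and 4477 FPKM at Days 0, 1, 2, 3 and 4, and 4786 and 4951 FPKM without and with Dox in the mutant line. Both libraries of the mutant line thus lay above all 5 libraries of the JMJD3c line, also as a share of all FPKM, at 1.04% and 1.07% against 0.833% to 0.886%.

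Among 41 members with a mean above 20 FPKM, 41 varied by less than 2-fold over the 7 libraries, as did 85.3% of all 4091 genes with such a mean. The median ratio of the highest to the lowest library was 1.48 for the members and 1.54 for all those genes. PSMB2, a beta subunit without an active site, varied least, between 43.4 and 48.6 FPKM. The ubiquitin receptor PSMD4 stayed between 115 and 133 FPKM, and the alpha subunit PSMA6 between 113 and 131 FPKM. The widest ranges among members present in every library belonged to PSMB8 (4.34-fold), the assembly chaperones PSMG3 (2.56-fold) and PSMG4 (2.41-fold) and PSMB10 (2.25-fold).

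**Figure D1:**
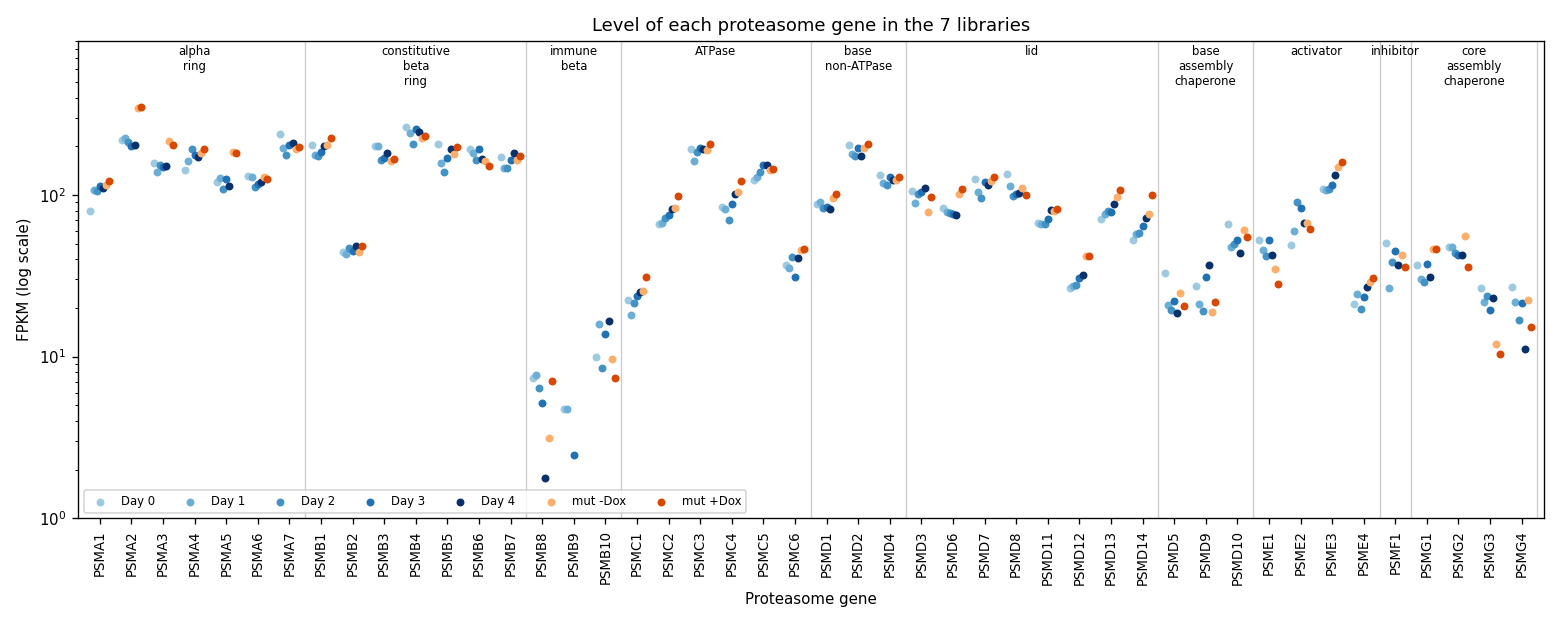
FPKM (log axis) of each proteasome gene, grouped by class; points are libraries, blue for the JMJD3c line from Day 0 (light) to Day 4 (dark) and orange for the mutant line without (light) and with (dark) Dox. Most core, ATPase and lid genes lie well above 20 FPKM, the immune beta genes lie lowest, and values of 0 (PSMB9 in 4 libraries) are not drawn.

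Subunits that enter the particle in equal number were not equal in mRNA. Among the ATPases, which form 1 ring together, the mean over the 7 libraries was 188 FPKM for PSMC3, 141 for PSMC5, 93.2 for PSMC4, 77.7 for PSMC2, 39.6 for PSMC6 and 23.9 for PSMC1. PSMC1 has 13 named pseudogenes in the annotation, to which its reads could have been assigned, and the highest ATPase exceeded it by between 6.64-fold and 8.93-fold within each library. Alpha subunits lay closer together, from 108 FPKM (PSMA1) to 250 FPKM (PSMA2). Beta subunits ran from 46.0 FPKM (PSMB2) to 238 FPKM (PSMB4), with PSMB2 well below the other 6 (164 FPKM or more).

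Lid subunits ran from 32.6 FPKM for PSMD12 to 116 FPKM for PSMD7, the inactive partner of the deubiquitinase PSMD14. The base scaffold PSMD2 had 190 FPKM and its counterpart PSMD1 89.0 FPKM. The base assembly chaperones were lower, from 22.8 FPKM (PSMD5) to 53.6 FPKM (PSMD10), as were the alpha ring chaperones, from 19.4 FPKM (PSMG4) to 45.2 FPKM (PSMG2). Of the activators, which open the core without ATP, the nuclear PSME3 was highest at 126 FPKM and PSME4 lowest at 25.1 FPKM. PSMF1, an inhibitor of the core in vitro, had 39.5 FPKM.

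Under JMJD3c the proteasome as a whole did not move far. At Day 4 against Day 0, 19 of the 46 members past the filter were higher and 27 were lower, where 55.2% of 10247 genes were lower. The median difference on the log2(FPKM + 1) scale was -0.08 for the members and -0.06 for all genes. FPKM ratios lay from 0.8 to 1.25 for 33 of the 46 members, against 46.7% of all genes and 54.1% of genes above 20 FPKM in either library. No member passed the fold cutoff upwards (5.87% of all genes did), and 3 passed it downwards, PSMB8, PSMB9 and PSMG4 (7.56% of all genes).

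Scaling by the upper quartile raised the median of all genes at Day 4 by 0.12 on the log2 scale, and 10 members with ratios between 0.917 and 1.00 then turned to higher. These were PSMA2, PSMA3, PSMA5, PSMB1, PSMB4, PSMB5, PSMC3, PSMD1, PSMD4 and PSMD7. The number of lower members went from 27 to 17 and the members' median to 0.04.

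Medians of the classes lay on both sides of 1 at Day 4. For all genes past the filter the median FPKM ratio to Day 0 was 0.955, and 55.2% were lower. It was 0.933 for genes above 20 FPKM in either library, so the core rings lay close to genes at large. The median FPKM ratio to Day 0 was 0.951 for the alpha ring and 0.935 for the constitutive beta ring, each with 2 of 7 genes higher. It was 1.17 for the ATPases and 1.12 for the lid. The ATPases were higher for 5 of 6 genes and the sixth, PSMC3, had a ratio of 1.00. Under upper-quartile scaling 3 alpha and 3 beta genes turned to higher, so that the direction of these core genes depended on the scaling. This scaling raised every ratio of Day 4 to Day 0, so it could not turn the 5 higher ATPases and was no check on them.

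Values of the ATPases showed small steps. PSMC2 had 66.2 FPKM at Day 0 and 66.6, 72.1, 75.1 and 82.1 FPKM at Days 1, 2, 3 and 4, with 83.3 and 98.7 FPKM in the mutant line without and with Dox. PSMC5 had 124, 128, 138, 152 and 154 FPKM at Days 0 to 4, and 144 and 145 FPKM in the mutant line. PSMC4 dipped to 70.4 FPKM at Day 2 between 83.8 FPKM at Day 0 and 101 FPKM at Day 4. The ratios of Day 4 to Day 0 were 1.24 for PSMC2 and PSMC5 and 1.21 for PSMC4, and the intervals overlapped for all 6 ATPases. Both PSMC2 and PSMC5 share their locus with other genes, and whether strand was used in counting is not given in the sources used here.

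PSMC2, PSMC5, PSMD12 and PSMD14 were the 4 of 46 members higher at each successive day (3.32% of genes with more than 4 FPKM in any of the 5 days), and the lid scaffold PSMD6 was the 1 member lower at each (3.55%). PSMD6 went from 82.6 to 75.0 FPKM.

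Apart intervals were found for 2 members at Day 4, PSMD14 and PSME4, both higher (5.15% of all genes and 6.77% of those above 20 FPKM), and for no member in the lower direction (7.0%). PSMD14 (ENSG00000115233, hg19 chr2:162164549-162268228), the deubiquitinase of the lid that cleaves ubiquitin chains from bound substrates, had 52.6 FPKM at Day 0 (interval 43.2 to 62.0) and 57.2, 58.6 and 64.7 FPKM at Days 1, 2 and 3. At Day 4 it had 71.7 FPKM (62.3 to 81.1), and in the mutant line 75.8 FPKM without Dox (68.2 to 83.6) and 99.7 FPKM with Dox (89.9 to 109). The highest value of the gene was thus that of the mutant line with Dox and the lowest that of Day 0. The FPKM ratio was 1.36 at Day 4 to Day 0 and 1.31 with to without Dox in the mutant line, with intervals apart in both, but Day 4 lay 0.945-fold relative to the untreated mutant line. The gap between the bounds at Day 4 and Day 0 was narrow, and PSMD14 has 1 named pseudogene.

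PSME4 (ENSG00000068878, hg19 chr2:54091204-54197977) encodes a large nuclear activator that caps the core and is known for the degradation of acetylated histones. It had 21.3 FPKM at Day 0 (18.4 to 24.2), 24.3, 19.8 and 23.5 FPKM at Days 1, 2 and 3, and 26.9 FPKM at Day 4 (24.2 to 29.6). The mutant line had 29.0 and 30.8 FPKM without and with Dox. All Dox-treated values of the JMJD3c line lay below both of the mutant line, and the Day 0 and Day 4 bounds almost touched. The locus of PSME4 overlaps that of ACYP2.

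The days between had other orders. At Day 1, 15 members were higher and 31 lower (54.2% of all genes were lower). Above 20 FPKM in either library, 30 of 43 members and 2861 of 4503 genes were lower. No member passed the fold cutoff at Day 1 (3.48% of all genes did upwards and 3.27% downwards) and no intervals were apart (1.45% higher and 2.54% lower). All 7 constitutive beta genes were lower at Day 1, with a median ratio of 0.914, but PSMB2, PSMB3 and PSMB6 turned to higher under upper-quartile scaling. At Day 2, 10 were higher and 36 lower (55.2% of all genes and 64.2% of those above 20 FPKM were lower), and upper-quartile scaling turned 11 of them. No member passed the fold cutoff upwards at Day 2 (3.9% of all genes) and PSMB9 passed it downwards (4.24%). At Day 3, 20 were higher and 26 lower, against 51.2% of all genes lower, and no member was past the cutoff (4.73% of all genes upwards and 4.48% downwards) or had intervals apart (4.45% higher and 4.34% lower).

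Day 2 was also the day with the lowest beta ring sum, 1045 FPKM, against 1281 FPKM at Day 0 and 1216 FPKM at Day 4. Intervals at Day 2 lay apart from those at Day 0 for PSMA4, which was higher (2.73% of all genes), and for PSMA7, PSMB5 and PSMD8, which were lower (4.49%). PSMB5, the subunit with the chymotrypsin-like site, had 206 FPKM at Day 0, 158, 139 and 169 FPKM at Days 1, 2 and 3, and 193 FPKM at Day 4. It was therefore lowest at Day 2 and back near its first value at Day 4. PSMA4 had 143 FPKM at Day 0, 193 FPKM at Day 2 and 171 FPKM at Day 4. PSMA7 had 238, 177 and 211 FPKM on the same days, and the lid scaffold PSMD8 134, 98.9 and 102 FPKM.

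The immune beta genes, which replace the catalytic subunits of the core after interferon, were the lowest class apart from PSMA8 and PSMB11, which were listed at 0. PSMB8 replaces PSMB5, PSMB9 replaces PSMB6 and PSMB10 replaces PSMB7. The constitutive catalytic genes had means of 177 FPKM (PSMB5), 173 FPKM (PSMB6) and 164 FPKM (PSMB7), and the immune ones 5.52 FPKM (PSMB8), 1.70 FPKM (PSMB9) and 11.7 FPKM (PSMB10). Defining markers of immune cells were absent or low: PTPRC and LYZ were at 0 in all 7 libraries, 1 of 5 markers (CD74) was above 1 FPKM, and their summed level ran from 2.77 to 7.32 FPKM.

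PSMB8 (ENSG00000204264, hg19 chr6:32808494-32812480) had 7.33 FPKM at Day 0 (2.94 to 11.7), 7.73, 6.40 and 5.16 FPKM at Days 1, 2 and 3, and 1.78 FPKM at Day 4 (0 to 4.56). The mutant line had 3.15 FPKM without Dox (1.10 to 5.18) and 7.11 FPKM with Dox (3.72 to 10.5). Day 4 was thus the lowest library, the untreated mutant line the next, and the treated mutant line was close to Day 0. The ratio was 0.243 at Day 4 to Day 0 and 2.26 with to without Dox in the mutant line, and the intervals overlapped in both comparisons. The untreated libraries themselves differed by a ratio of 0.429 (mutant line to Day 0).

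PSMB9 (ENSG00000240065, hg19 chr6:32811913-32827362) was listed at 4.75, 4.72, 0, 2.46 and 0 FPKM at Days 0 to 4 and at 0 FPKM in both libraries of the mutant line. Its interval at Day 0 ran from 0 to 13.5 FPKM, so its values did not separate the libraries, and a listed 0 is not shown to be an absence. Its locus overlaps PSMB8 and TAP1, and reads in the overlap may have been divided among them. PSMB10 (ENSG00000205220, hg19 chr16:67968405-67970990) had 10.0, 16.0, 8.56, 13.8 and 16.7 FPKM at Days 0 to 4 and 9.71 and 7.39 FPKM without and with Dox in the mutant line. Its ratio was 1.67 at Day 4 to Day 0 and 0.761 in the mutant line, with intervals that overlapped in both.

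**Figure D2:**
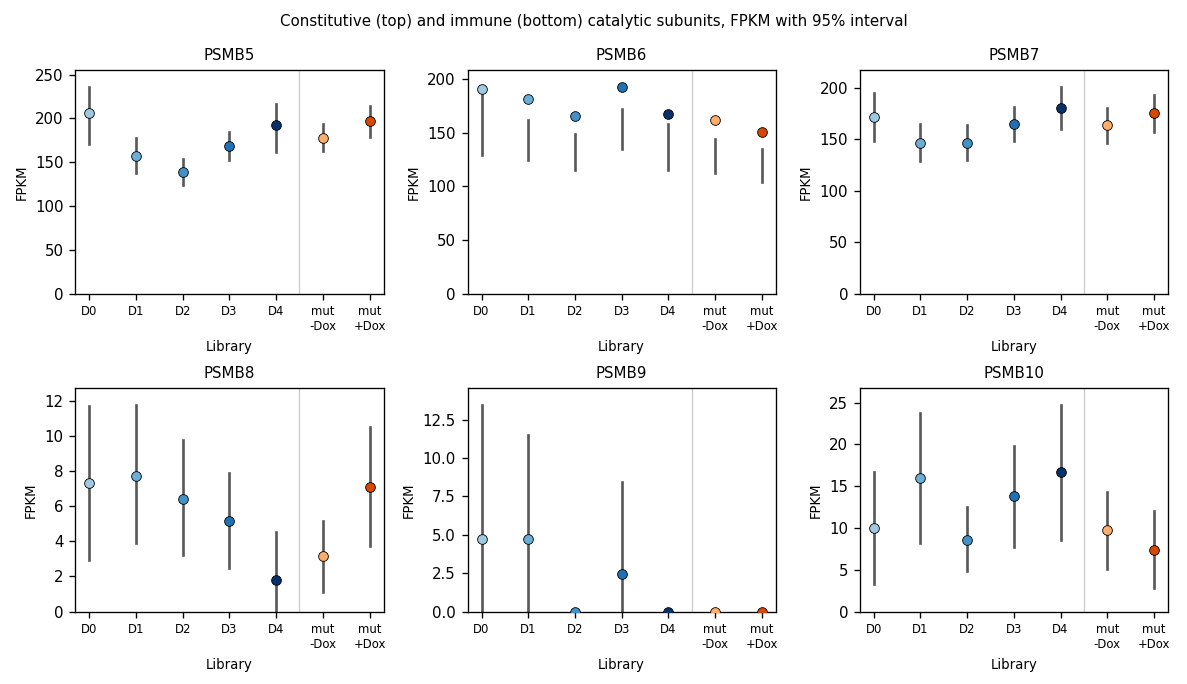
FPKM of the constitutive catalytic genes PSMB5, PSMB6 and PSMB7 (top) and of their immune replacements PSMB8, PSMB9 and PSMB10 (bottom) in the 7 libraries; points are FPKM, vertical lines Cufflinks 95% intervals, with 1 library per point. The constitutive genes stay between 139 and 206 FPKM, PSMB8 is lowest at Day 4 (1.78 FPKM), and the PSMB6 points lie above their own intervals.

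FPKM lay outside its own interval in all 7 libraries for PSMB1, PSMB4 and PSMB6, in 6 for PSMA2 and in 3 for PSME2, and comparisons of intervals are less reliable for these 5 genes.

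Promoters of the immune pair PSMB8 and PSMB9 and of PSMD14 and PSME4, the members with the largest falls on the log2(FPKM + 1) scale and those with intervals apart at Day 4, are shown as the 250 bases before the RefSeq start (GRCh38.p14, a later build than that of the FPKM files), in the direction of transcription. Capitals mark matches, on either strand, to TGACNNNGC, the core of the antioxidant response element that NFE2L1 and NFE2L2 bind, to CCAAT, and to the interferon-stimulated response element. PSMB8 lies at chr6:32844680-32844929 (minus strand; the first of 2 starts), PSMB9 at chr6:32853942-32854191 (plus), PSMD14 at chr2:161308175-161308424 (plus) and PSME4 at chr2:53970994-53971243 (minus).
PSMB8: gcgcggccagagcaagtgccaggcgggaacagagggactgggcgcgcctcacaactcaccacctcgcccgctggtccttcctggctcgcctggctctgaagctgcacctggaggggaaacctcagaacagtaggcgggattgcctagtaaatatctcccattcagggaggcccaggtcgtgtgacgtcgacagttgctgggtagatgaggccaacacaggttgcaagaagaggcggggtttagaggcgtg
PSMB9: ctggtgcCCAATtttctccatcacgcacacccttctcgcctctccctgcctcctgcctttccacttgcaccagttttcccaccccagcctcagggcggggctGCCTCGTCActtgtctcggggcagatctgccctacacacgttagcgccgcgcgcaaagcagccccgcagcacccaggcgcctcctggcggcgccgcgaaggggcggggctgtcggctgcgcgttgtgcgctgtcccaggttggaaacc
PSMD14: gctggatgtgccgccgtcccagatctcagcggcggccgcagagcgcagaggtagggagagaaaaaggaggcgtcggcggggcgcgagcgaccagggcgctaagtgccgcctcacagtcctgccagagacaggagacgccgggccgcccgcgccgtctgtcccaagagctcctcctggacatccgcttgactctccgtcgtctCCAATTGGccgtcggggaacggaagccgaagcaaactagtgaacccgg
PSME4: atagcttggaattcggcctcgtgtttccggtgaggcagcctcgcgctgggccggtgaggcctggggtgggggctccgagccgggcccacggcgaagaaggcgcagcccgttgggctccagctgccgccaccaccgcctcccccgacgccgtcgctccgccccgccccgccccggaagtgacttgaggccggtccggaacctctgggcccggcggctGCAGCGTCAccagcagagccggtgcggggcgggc

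The PSMB8 window held none of the 3 motifs, PSMB9 held TGACNNNGC and CCAAT, PSMD14 held a pair of CCAAT matches on opposite strands that overlap each other, and PSME4 held TGACNNNGC. RefSeq windows were found for 42 of the 48 members, 51 windows in all. TGACNNNGC was in 13 of the 51 (25.5%), against 10.9% of 35116 windows of all genes. CCAAT was in 19 (37.3%, against 32.0%) and the interferon-stimulated response element in 5 (9.8%, against 3.02%), among them that of PSMB10. Windows of 1 gene can overlap, and a match is a description of the letters, not a binding site.

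Assembly chaperones were mostly lower at Day 4. PSMG4, 1 of the chaperones that build the alpha ring, had 27.0 FPKM at Day 0 (15.3 to 37.2), 21.9, 16.9 and 21.5 FPKM at Days 1, 2 and 3, and 11.2 FPKM at Day 4 (6.15 to 16.3). The mutant line had 22.4 and 15.2 FPKM without and with Dox. Both libraries at 4 days of Dox were the lowest, the ratio was 0.415 in the JMJD3c line and 0.679 in the mutant line, and the intervals overlapped in both. The locus of PSMG4 overlaps SLC22A23.

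All 4 alpha ring chaperones were lower at Day 4 (55.2% of all genes were), with a median ratio of 0.857 and overlapping intervals. With Dox in the mutant line 3 of the 4 were lower, with a median ratio of 0.773, where 4783 of 9736 genes were lower. Of the base chaperones, PSMD5 had 33.1 FPKM at Day 0, 20.8, 19.4, 22.2 and 18.5 FPKM at Days 1 to 4, and 24.8 and 20.7 FPKM in the mutant line. Day 0 was the highest library for PSMD5 but had a wide interval, from 15.4 to 55.7 FPKM. PSMD10, also called gankyrin, had 66.2 FPKM at Day 0 and 43.7 FPKM at Day 4, and PSMD9 27.4 and 36.9 FPKM, with intervals that overlapped. Summed over these 3, the level was 127 FPKM at Day 0 and 87.9 to 106 FPKM at Days 1 to 4. The mutant line had 104 and 97.2 FPKM without and with Dox, so that Day 0 stood above all other libraries, the untreated mutant line included. POMP, the chaperone of the beta ring that is outside the PSM names, had 63.3 FPKM at Day 0 and 77.5 FPKM at Day 4.

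The largest rises at Day 4 were those of PSMB10 (above), PSMA1 and PSME2. PSMA1 had 79.6 FPKM at Day 0 (60.7 to 91.1), 107, 105, 113 and 110 FPKM at Days 1 to 4, and 115 and 123 FPKM in the mutant line. Day 0 was alone at the low end, the other 6 libraries were within 105 to 123 FPKM, and the ratio of Day 4 was 1.39 with overlapping intervals. PSME2, a subunit of the interferon-inducible activator, had 49.3, 60.0, 90.6, 83.6 and 67.4 FPKM at Days 0 to 4, and 67.3 and 61.4 FPKM in the mutant line. Its partner PSME1 had 52.5, 45.8, 42.1, 52.4 and 42.4 FPKM at Days 0 to 4 and 34.7 and 28.3 FPKM in the mutant line. The pair, which form a ring together, did not move in parallel over the days. PSME2 has 6 named pseudogenes, and both genes overlap a neighbour.

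The JMJD3c mut-hESCs served as the comparison for catalytic activity. With Dox, 31 of 45 members past the filter were higher and 14 lower than without (50.9% of 9736 genes were higher), with a median of 0.05 on the log2(FPKM + 1) scale against 0.004 for all genes. Ratios were from 0.8 to 1.25 for 40 of the 45 (72.0% of all genes). Above 20 FPKM in either library, 39 of 42 members and 83.2% of genes were within this range. All 6 ATPases were higher, by 1.01-fold to 1.21-fold, with 7 of 8 lid genes and 6 of 7 constitutive beta genes. PSMC5, PSMD12 and PSMG1 had ratios close to 1 and turned to lower under upper-quartile scaling.

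One member, PSMB8, passed the fold cutoff in the mutant line, upwards (1.25% of all genes), and none downwards (1.53%). Intervals were apart for PSMD14 and PSMD3, higher (1.47%), and for PSMG2, lower (1.68%). PSMD3, a scaffold of the lid, had 78.2 FPKM without Dox (70.4 to 86.3) and 97.4 FPKM with Dox (88.0 to 107), and 106, 89.4, 101, 105 and 111 FPKM at Days 0 to 4 in the JMJD3c line. The untreated mutant line was the lowest library for this gene. PSMG2, the partner of PSMG1 in alpha ring assembly, had 55.6 FPKM without Dox (46.6 to 64.6) and 35.6 FPKM with Dox (27.9 to 43.3), the highest and lowest of its 7 values, and between 42.7 and 47.9 FPKM in the JMJD3c line. The second largest fall was that of PSMG4.

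**Figure D3:**
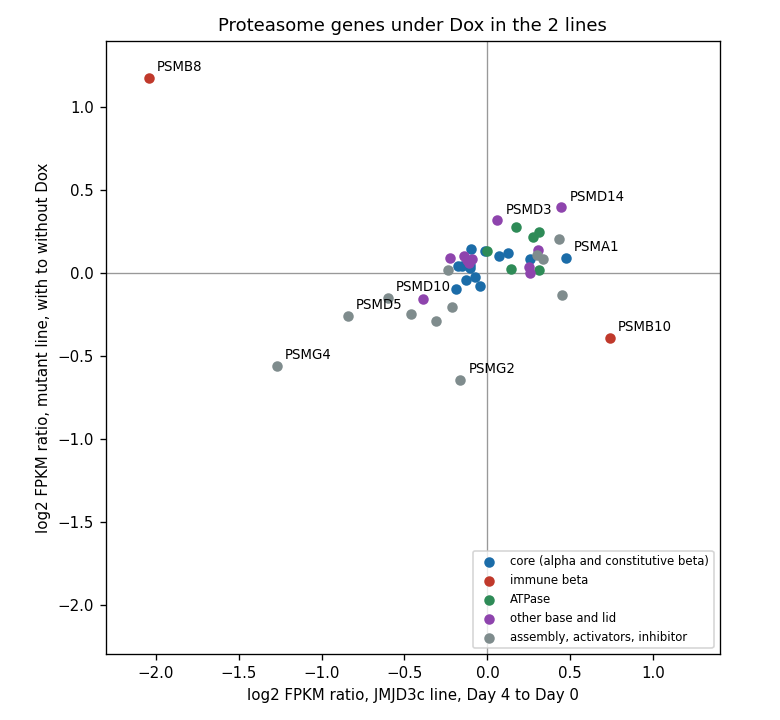
Each point is a proteasome gene, placed by the log2 FPKM ratio of Day 4 to Day 0 in the JMJD3c line (horizontal) and of the Dox-treated to the untreated mutant line (vertical), without a pseudocount and with 1 library per condition. Most genes lie near the origin, PSMB8 lies apart (ratios 0.243 and 2.26), PSMB10 lies opposite (1.67 and 0.761), PSMG4 is low in both, and PSMB9 and the genes at 0 cannot be placed.

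Day 4 was also compared with the mutant line. Against the untreated mutant line, 16 of 44 members were higher and 28 lower, where 51.6% of genes were lower. Intervals were apart for PSMD3, higher (8.65%), and for PSMA2, PSMA3, PSMA5, PSMD6 and PSMD12, lower (9.96%), and no member passed the fold cutoff (7.05% of genes upwards and 3.9% downwards). Against the treated mutant line, 16 of 45 were higher and 29 lower (51.8%), and the intervals were apart for 7 members, all lower (8.67%, with 7.58% of genes higher): the same 5 genes together with PSMD1 and PSMD14. PSMB10 and PSMG3 passed the fold cutoff upwards (6.56%) and PSMB8 downwards (3.0%). Of 44 members past the filter against both untreated libraries, 0 had intervals at Day 4 apart from both in the same direction (3.3% of 9844 genes were higher and 3.07% lower by this rule). These comparisons share the Day 4 library.

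More members had intervals apart between the untreated libraries of the lines than between treated and untreated cells of either line. In the untreated mutant line, 23 of 46 members were higher and 23 lower than at Day 0 (54.2% of all genes were lower). Intervals were apart for 8 higher members (6.79% of all genes, 10.6% of those above 20 FPKM), namely PSMA2, PSMA3, PSMA5, PSMD12, PSMD13, PSMD14, PSME3 and PSME4, and for 1 lower member, PSMD3 (6.93%). PSMB8, PSMB9 and PSMG3 passed the fold cutoff downwards (7.01%) and none upwards (2.78%). PSMD14 and PSME4, the members with intervals apart between Day 4 and Day 0, were both among the 8 that already differed between the untreated libraries.

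The alpha genes PSMA2, PSMA3 and PSMA5 separated the lines. PSMA2 (ENSG00000106588, hg19 chr7:42956460-42971822) had 218, 225, 211, 201 and 203 FPKM at Days 0 to 4 and 343 and 350 FPKM in the mutant line without and with Dox. PSMA5 (ENSG00000143106, hg19 chr1:109941653-109969062) had 120, 127, 109, 126 and 114 FPKM at Days 0 to 4 and 184 and 181 FPKM in the mutant line. PSMA3 had 157, 138, 152, 148 and 152 FPKM, and 215 and 204 FPKM. In all of these the 5 libraries of the JMJD3c line lay together, below both of the mutant line, and Dox moved neither line by as much. The summed alpha ring was 1061 to 1087 FPKM in the JMJD3c line and 1361 and 1373 FPKM in the mutant line, while the beta ring, at 1138 and 1192 FPKM in the mutant line, was within the JMJD3c range of 1045 to 1281 FPKM.

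PSMA2 overlaps MRPL32 and has 3 named pseudogenes, its values lie above their own intervals in 6 libraries, and PSMA3 and PSMA5 have 1 pseudogene each. The promoter windows of PSMA2 (chr7:42932175-42932424, minus strand, GRCh38.p14) and PSMA5 (chr1:109426449-109426698, minus strand), shown because both genes separate the lines, each held CCAAT (capitals), once in PSMA2 and at 2 places in PSMA5.
PSMA2: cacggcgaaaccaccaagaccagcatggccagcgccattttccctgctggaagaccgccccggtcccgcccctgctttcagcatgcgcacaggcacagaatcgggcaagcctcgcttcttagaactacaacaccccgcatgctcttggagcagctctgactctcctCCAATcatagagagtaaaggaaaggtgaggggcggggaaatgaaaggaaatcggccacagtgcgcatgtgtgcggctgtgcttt
PSMA5: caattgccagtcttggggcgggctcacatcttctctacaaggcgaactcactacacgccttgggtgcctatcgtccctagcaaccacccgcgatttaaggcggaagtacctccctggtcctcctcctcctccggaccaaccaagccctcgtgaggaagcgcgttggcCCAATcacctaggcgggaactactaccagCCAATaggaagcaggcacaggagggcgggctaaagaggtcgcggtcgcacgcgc

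In the lid, PSMD12 had 26.6, 27.3, 27.8, 30.7 and 31.8 FPKM at Days 0 to 4 and 42.1 FPKM in both libraries of the mutant line. In the other direction, the chaperone PSMG3 had 26.6, 21.7, 23.6, 19.3 and 23.0 FPKM at Days 0 to 4 and 12.0 and 10.4 FPKM in the mutant line, with overlapping intervals between the untreated libraries (16.1 to 37.1 and 7.02 to 16.9). Counted over all members, 17 of 46 had both mutant-line libraries above all 5 of the JMJD3c line (14.8% of 10878 genes) and 3, PSMB6, PSME1 and PSMG3, had both below (15.6%). The 17 included 4 alpha, 1 constitutive beta, 4 ATPase and 4 lid genes. If a step is 1 read, the untreated libraries had 3620000 reads (mutant line) and 1810000 reads (Day 0), the deepest and the shallowest of the series. The treated mutant library had 3200000 reads, Day 2 3250000 and Day 3 3390000. The part of depth in the differences between the lines was not tested. The lines differ in clone and culture as well as in the transgene, and these cannot be told apart.

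**Figure D4:**
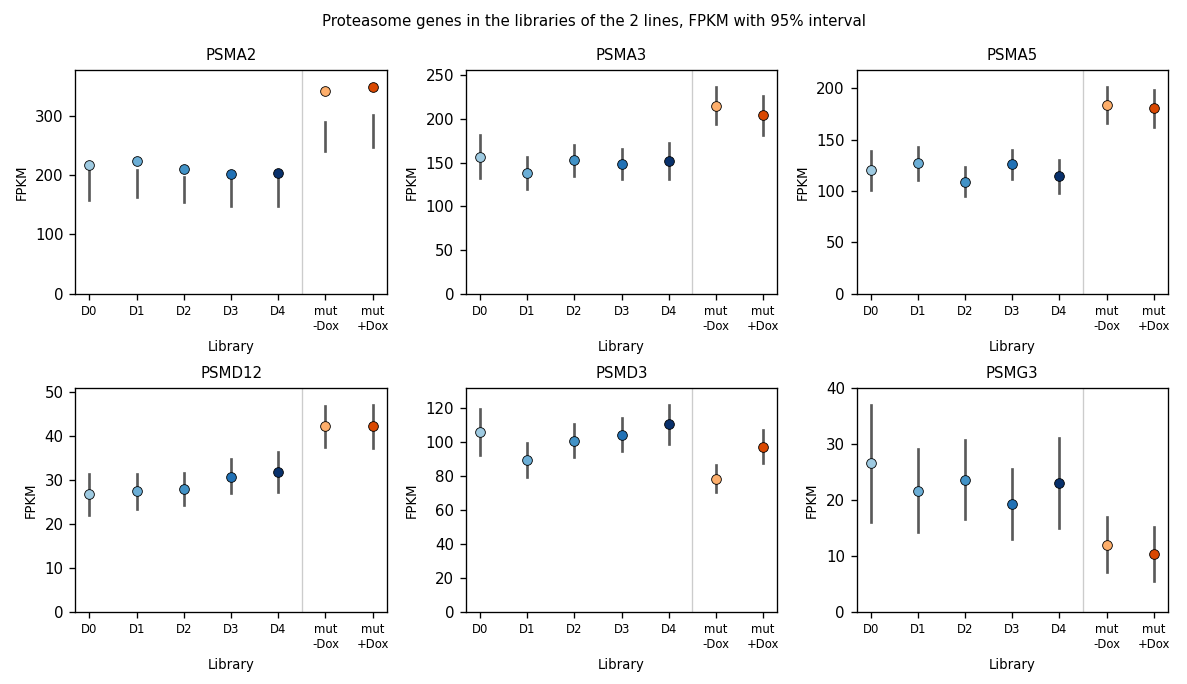
FPKM of 6 proteasome genes in the 7 libraries; points are FPKM and vertical lines Cufflinks 95% intervals, with the JMJD3c line left of the grey line and the mutant line right of it. PSMA2, PSMA3, PSMA5 and PSMD12 are higher and PSMG3 lower in both libraries of the mutant line, and PSMD3 is lowest in the untreated mutant line (78.2 FPKM).

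Other genes of the ubiquitin and proteasome pathway gave no common direction. Of 30 listed genes, all past the filter, 16 were higher and 14 lower at Day 4 against Day 0, with a median of 0.05 on the log2(FPKM + 1) scale. Of all genes 55.2% were lower, with a median of -0.06. PAAF1, a chaperone of the base, passed the fold cutoff downwards (7.56% of all genes did). It had 26.1 FPKM at Day 0 and 9.85 FPKM at Day 4, with overlapping intervals. Intervals at Day 4 were apart from both untreated libraries in the same direction for 2 of the 30, 1 higher and 1 lower (3.3% and 3.07% of all genes). KIAA0368 (ECM29), a scaffold that binds core and regulatory particle, was lower, at 64.2, 64.5, 52.5, 45.3 and 40.2 FPKM at Days 0 to 4 against 81.8 and 74.7 FPKM in the mutant line. The polyubiquitin gene UBB was higher, at 971 FPKM at Day 0 and 1245 FPKM at Day 4 against 699 and 772 FPKM in the mutant line.

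SHFM1 (DSS1), the small lid subunit without a PSM name, had 256, 122, 174, 179 and 211 FPKM at Days 0 to 4 and 73.3 and 66.0 FPKM in the mutant line. It thus differed between the lines in the direction opposite to PSMD12. NFE2L1, the transcription factor that induces proteasome genes when the protease is inhibited, had 103, 81.3, 105, 120 and 104 FPKM at Days 0 to 4. In the mutant line it had 59.5 and 69.8 FPKM. Its relation to the level of the members was not tested.

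Of 8 genes of antigen processing, which uses the peptides of the immune proteasome, 5 were past the filter. At Day 4 against Day 0, 2 of the 5 were higher and 3 lower (55.2% of all genes were lower). TAP2, a chain of the peptide transporter, passed the fold cutoff downwards (7.56% of all genes did), with overlapping intervals. It had 7.10 FPKM at Day 0 and 3.40 FPKM at Day 4, and 4.75 and 5.98 FPKM in the mutant line. Of its 2 entries, that with the higher mean is given. TAP1, the other part, which lies beside PSMB9, was below 4 FPKM in every library and so not past the filter. It had 2.84 FPKM at Day 0 and 0.829 FPKM at Day 4, with overlapping intervals, and 2.62 and 1.58 FPKM without and with Dox in the mutant line. B2M, the light chain of class I molecules, went the other way, at 24.1 and 37.6 FPKM, with 24.6 and 29.1 FPKM in the mutant line. Its interval at Day 4 was apart from those of both untreated libraries (3.3% of all genes were higher by this rule).

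PSMC3IP, which is no proteasome gene, passed the fold cutoff in both lines. It had 8.50 FPKM at Day 0, 18.1, 13.3, 16.1 and 17.1 FPKM at Days 1 to 4, and 8.29 and 17.1 FPKM without and with Dox in the mutant line. Both untreated libraries were thus low and all Dox-treated ones high, with ratios of 2.01 and 2.07, but the intervals overlapped in both comparisons, and the locus overlaps MLX.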

How the data were processed

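Poly(A) RNA of 7 samples was made into directional libraries. Per the labels, the authors used CASAVA (1.4), mapped reads to hg19 with TopHat2 (2.0.13) and calculated FPKM and 95% bounds with Cufflinks (2.1.1), and they deposited these FPKM values and bounds. Neither the annotation nor the use of strand in counting is given in the sources used here. FPKM holds no counts, so depth was estimated from steps among low values.

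Entries were joined on symbol, identifier and locus. Ratios, log2(FPKM + 1) differences (pseudocount 1), the FPKM cutoff of 4, the fold cutoff of 2 and overlap of intervals were computed with Python 3.11.15, numpy 2.4.6, pandas 2.3.3 and matplotlib 3.10.9. The fold call was tried on simulated data, with planted changes larger than the cutoff in genes above 20 FPKM. The simulation held counting noise only, at a depth not matched to the libraries, and no variation between replicate libraries. Overlap of intervals and genes near 4 FPKM were not tried in this way. No test across libraries was made, as each condition has 1 library. Named genes were the largest rises and falls, members past a cutoff or with intervals apart, the highest and lowest of each class, the catalytic pairs and entries at 0. PSMD5, PSMD6, PSMD9, PSMD10, PSMA4, PSMA7, PSMC4, POMP, SHFM1, NFE2L1 and others outside this rule were named after their values were seen. Pseudogenes come from GENCODE 44, promoters from RefSeq. The members and lists were chosen with earlier results of these data known. Alternatives changed the pseudocount, filter, cutoffs, scaling, members, treated day and untreated reference.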

Additional observations from a re-analysis of the deposited data

Results flagged for a closer look

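The ratios of 2 immune beta genes under Dox were opposite in the JMJD3c line and the mutant line. The FPKM ratio of PSMB8 was 0.243 at Day 4 to Day 0 and 2.26 with to without Dox in the mutant line. The FPKM ratio of PSMB10 was 1.67 at Day 4 to Day 0 and 0.761 in the mutant line. Each ratio rests on 1 library per condition, the intervals overlapped in all 4 comparisons, and the difference between the lines was not tested.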

How the results depend on the processing

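Of 44 alternatives to 8 results, 37 stayed within the band set for each and 7 moved. The band was 1.5 times the count or, for a median, a fixed difference with the sign kept. That difference was slightly larger than the mutant-line median itself, so the band was a loose check there. The members' median at Day 4 against Day 0 was -0.025 on the log2(FPKM + 1) scale after scaling by the median ratio and 0.042 by the upper quartile, in place of -0.08, and 17 members were lower with the upper quartile in place of 27. With a fold cutoff of 1.5 in place of 2, 6 members passed it at Day 4 in place of 3, and 2 in the mutant line in place of 1. Intervals were apart for 6 members with the untreated mutant line as the reference and for 0 with Day 3 as the treated library, in place of 2 at Day 4 against Day 0. Using the midpoint of the interval, or leaving out members with FPKM outside it, was chosen after seeing the data and moved neither the medians nor the counts beyond the band. No paired analysis was possible because each condition has 1 library, and no library could be left out for the same reason. The intervals of the low immune beta genes were wide, that of PSMB9 at Day 0 from 0 to 13.5 FPKM, and the part of depth in this was not tested.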
